A study of Arabidopsis thaliana with 32 samples.

Results

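The 75 genes described here encode small secreted peptides of the defensin-like class and carry the names LCR (low-molecular-weight cysteine-rich, 63 genes) or SCRL (S-locus cysteine-rich-like, 12 genes). They were chosen by name alone, as the probe sets that list 1 gene whose symbol in the array annotation or in the RefSeq gene table (assembly TAIR10.1) is LCR or SCRL followed by digits. They make up 75 of the 28285 genes tested, and each was read by 1 probe set. All 75 matched the RefSeq table, in which 109 symbols have this form. No probe set of these genes held the same values as another on all arrays.

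The study asked how *Arabidopsis thaliana* roots respond early when turgor or osmotic potential changes. Whole roots of Columbia-0 plants aged 16 days, grown in hydroponic solution, were collected after 15 min in fresh solution (the control) or in the same solution with an osmotic solute. The solutes were NaCl at 25, 50, 75 or 100 mM, sorbitol at 50, 100 or 150 mM, polyethylene glycol 8000 (PEG) at 75, 100, 125 or 150 mM, and ethylene glycol at 50, 100, 150 or 200 mM, all as labelled. Each of the 16 groups had 2 one-colour arrays, 1 with a sample title number from 17 to 32 (replicate 1, the first title-number series) and 1 with a number from 33 to 48 (replicate 2, the second series). The labels do not say whether both arrays of a group stand for separate cultures, so the p-values describe the spread among these samples only, which may be technical.

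Defensin-like peptides are short chains that leave the cell through the secretory pathway and are held in shape by disulphide bonds between conserved cysteines. The plant defensins proper (PDF) among them are best known for acting against fungi, and several bind metal ions or act on ion channels. The SCRL genes are named for their likeness to SCR, the pollen ligand by which self-incompatible Brassicaceae recognise their own pollen. Many LCR and SCRL genes are known for expression in flowers, pollen, ovules or seeds.

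Root identity was visible in the few marker genes that could be named. All 3 root markers found, of 19 symbols looked for, lay above the array median on every array: PYK10, the beta-glucosidase of root endoplasmic reticulum bodies, had a mean log2 value of 10.7, and the root hair expansins EXPA7 and EXPA18 had means of 7.34 and 6.28. The markers of other tissues that were found lay below the median on every array. These were RCA (Rubisco activase, shoot; mean 3.42, 1 of 8 symbols found), OLEO3 (an oleosin of seeds; 1.87, 1 of 11), VGD1 and VGDH1 (pectin methylesterases of pollen; 1.73 and 2.99, 2 of 5) and EC1.1 (an egg cell peptide; 1.32, 1 of 3). The array medians over all genes tested lay between 4.11 and 4.25 on the same scale, and the precision is limited by the number of arrays.

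Of the 75 genes, 2 stood in the upper part of the arrays in roots, and the other 73 in the lower part. LCR69 (AT2G02100, also named PDF2.2) had a mean log2 value of 7.53 ± 0.209 (SD, n = 32 arrays), at the 93.2th percentile of all genes. LCR68 (AT2G02130, also named PDF2.3, a defensin shown to block potassium channels in laboratory assays) had a mean of 6.89 ± 0.186 (SD, n = 32), at the 88.0th percentile. Both lay above the 75th percentile of all genes on all 32 arrays. The files give no detection p-value and probe sets differ in how strongly they bind, so a place on the array is a description of the signal and not an amount of RNA. In whole roots, a transcript present in few cells and one present at little RNA per cell cannot be told apart.

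**Figure D1:**
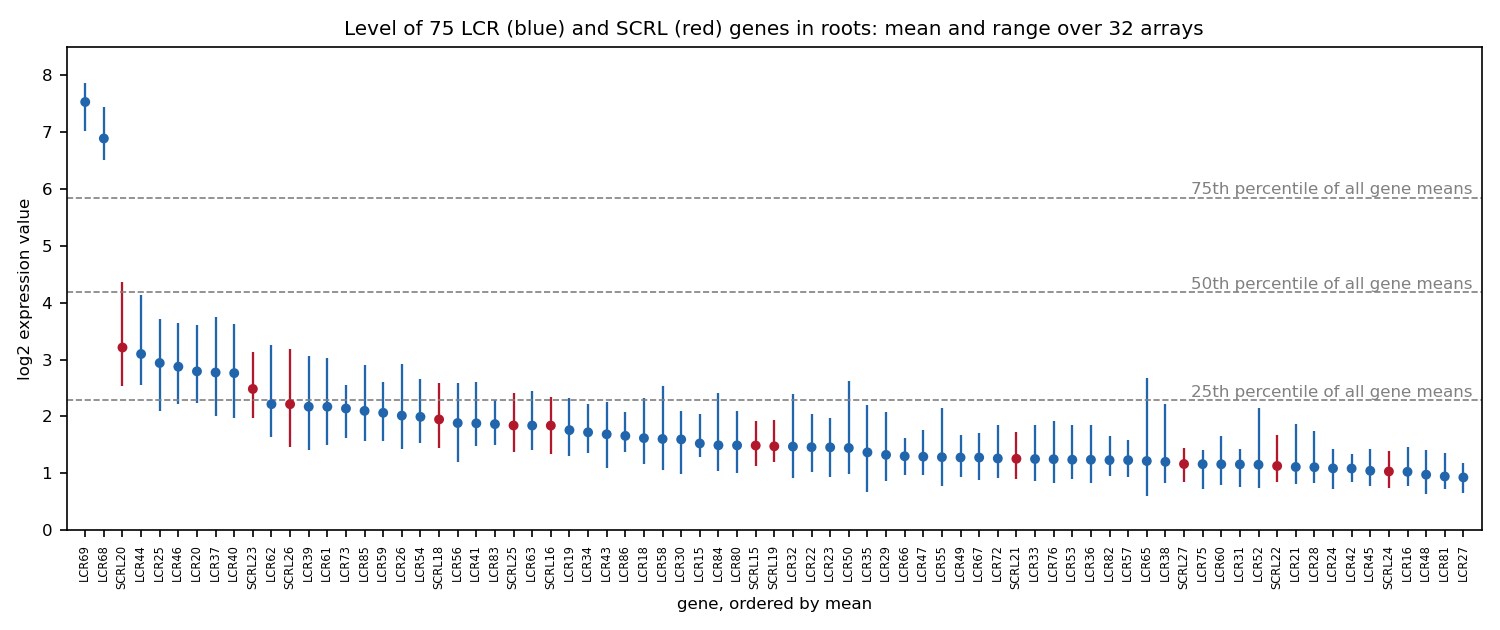
Mean log2 expression value of each of the 75 genes over the 32 arrays (points; LCR in blue, SCRL in red), with lines from the lowest to the highest array and dashed lines at the quartiles of all gene means. LCR69 and LCR68 lie alone above the upper dashed line, and 65 of the genes lie below the lowest one.

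No gene had a mean between those of LCR68 and SCRL20, which came next at 3.21, so the set fell into 2 separate levels. Divided by the quartiles of all gene means (cuts at 2.28, 4.19 and 5.85), 65 of the 75 genes (86.7%) were in the lowest quartile, 8 in the second, 0 in the third and 2 in the highest. The 8 in the second quartile were SCRL20, LCR44, LCR25, LCR46, LCR20, LCR37, LCR40 and SCRL23. Of the 73 genes other than LCR68 and LCR69, 71 were below the array median on all arrays.

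SCRL20 and LCR44 each passed the array median on 1 array. SCRL20 ran from 2.54 to 4.36 with a mean of 3.21 ± 0.376 (SD, n = 32), and LCR44 from 2.55 to 4.14 with a mean of 3.10 ± 0.336. In both the highest value was that of PEG 150 mM replicate 2. That array was also the highest of the 32 for 10 of the 75 genes, a share not counted over all genes. Its values were the most compressed, with an SD over all genes of 2.01 against up to 2.22 on the others.

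The next genes by level overlapped with each other. LCR25 had a mean of 2.94 (range 2.09 to 3.72), LCR46 of 2.87 (2.22 to 3.64) and LCR20 of 2.79 (2.24 to 3.6). LCR37 followed at 2.77 (2.00 to 3.74), LCR40 at 2.76 (1.97 to 3.63) and SCRL23 at 2.48 (1.98 to 3.14). LCR62 and SCRL26, both with a mean of 2.21, were just under the cut of the lowest quartile. The order of these 8 genes lies within the range of their arrays.

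The remaining genes were near the bottom of the scale. Among the 73 lower genes the median of the means was 1.47, and 41 of the 75 had a mean under 1.5. The lowest were LCR27 with a mean of 0.926 (range 0.65 to 1.18), LCR81 with 0.943 (0.73 to 1.36), LCR48 with 0.974 (0.63 to 1.40) and LCR16 with 1.02 (0.78 to 1.46). LCR and SCRL genes were alike in this: the median of the means was 1.46 over the 63 LCR genes, of which 55 were in the lowest quartile, and 1.66 over the 12 SCRL genes, of which 10 were.

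The genes are short, and short genes as a whole gave lower values on these arrays. The RefSeq gene spans of the 75 ran from 318 to 1558 bases with a median of 582, against a median of 1920 for the other 16343 named genes. Of the 6020 other named genes with a span of at most 1558 bases, 49.3% had a mean in the lowest quartile and 22.3% one above the median. Among all other named genes these shares were 28.7% and 45.3%, and among the 75 genes 86.7% and 2.67%. The 6020 genes were limited only by the longest span of the 75 and were not matched to their lengths. The part of gene length in the low values was not tested.

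The 2 high genes belong to the PDF2 class of plant defensins, and 4 genes of that class had means above all of PDF1. Of 6 PDF2 genes on the array, 4 were above the array median on every array: LCR69, LCR68, PDF2.1 (mean 5.93, range 5.48 to 6.34) and PDF2.5 (7.70, 7.19 to 8.22). PDF2.1 and PDF2.5 carry older LCR names only as synonyms and are not among the 75. The remaining PDF2 genes, LCR72 (PDF2.6) and LCR66 (PDF2.4), had means of 1.26 and 1.3. Of the 7 PDF1 genes, none was above the median on all arrays. LCR67 (PDF1.1, a defensin linked to iron binding) had a mean of 1.28, PDF1.2, the jasmonate- and ethylene-induced defensin used as a marker of that defence pathway, had 1.24, and the highest of the class was PDF1.3 at 2.72.

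**Figure D2:**
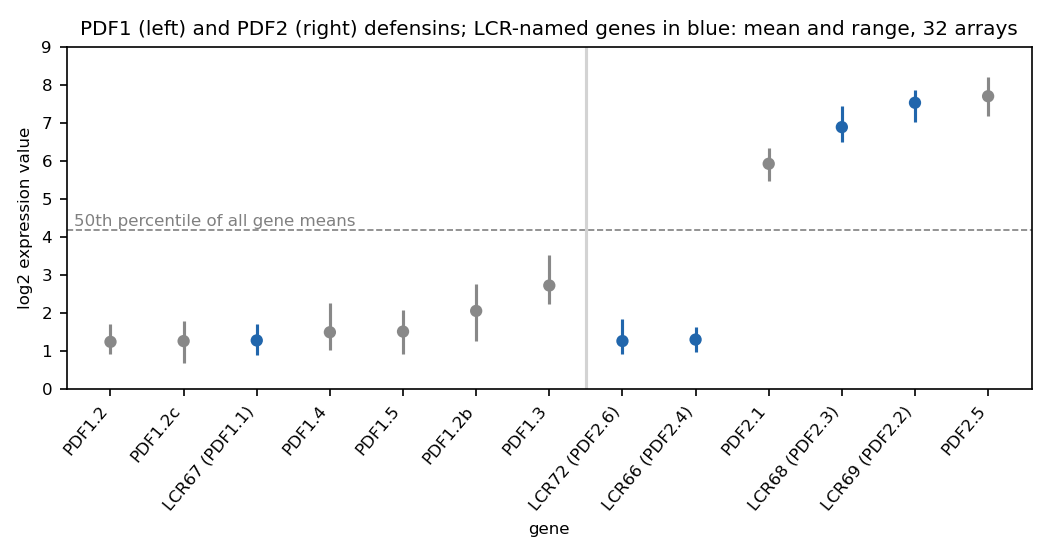
Mean log2 expression value over 32 arrays (points) and range from the lowest to the highest array (lines) for the 7 PDF1 genes (left) and the 6 PDF2 genes (right); LCR-named genes are in blue, other PDF genes in grey, and the dashed line is the 50th percentile of all gene means. PDF2.1, LCR68, LCR69 and PDF2.5 lie wholly above the line and the other genes wholly below it.

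High and low genes lay side by side on the chromosome. In the RefSeq gene order of assembly TAIR10.1, LCR69 is followed on chromosome 2 by AT2G02103 (mean 1.20), a pseudogene, PDF2.1, LCR68, a long non-coding RNA, the pseudogene LCR71, LCR72 and LCR73. Within this stretch LCR69, PDF2.1 and LCR68 had means of 7.53, 5.93 and 6.89, while LCR72 and LCR73 had 1.26 and 2.14. PDF2.1, LCR68 and LCR69 are related in sequence, and how far their probes could bind each other's transcripts was not tested.

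Counting neighbours with at most 2 other genes between them, 31 of the 75 genes lay in 11 runs and 44 lay alone. By locus tag, chromosome 4 held 25 of the genes, chromosome 2 held 20, chromosome 3 held 16, chromosome 5 held 9 and chromosome 1 held 5. The longest run, of 7 genes, was LCR23, LCR22, LCR21, LCR24, LCR26, LCR27 and LCR25, with means of 1.46, 1.46, 1.11, 1.08, 2.01, 0.926 and 2.94. The end gene LCR25 was thus the highest of its run and followed the lowest of the whole set, LCR27.

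The solutes were each compared with the control in limma, fitted over all 28285 genes, as the average over the doses, as a slope per 100 mM with the control at 0 mM, and at each dose alone. None of the 75 genes passed an adjusted p of 0.05 in any of these comparisons, whether or not the title-number series entered the fit as a replicate block. Few genes of any kind did: at least 1 single dose was called for 0.0177% of all genes without the block and for 1.26% with it. The moderated F-test over all groups called 0.0141% and 0.778%. In that test 6 of the 75 genes had an unadjusted p under 0.05 without the block, where 1.7% of all genes did, and 9 with it, where 10% of all genes did. Without the block the genes with the smallest p in it were LCR23 (adjusted p = 1 in limma, 0.219 with the block) and LCR62 (adjusted p = 1 in limma, 0.133 with the block).

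LCR68 was lower in every treated group than in the control by group mean. Its control arrays read 6.92 and 7.44 (replicates 1 and 2), and the second was the highest of all 32. With NaCl it read 7.0 and 7.13 (25 mM), 6.68 and 6.92 (50 mM), 6.61 and 6.97 (75 mM) and 6.53 and 7.12 (100 mM). Of the 30 treated arrays, 25 were below the control of their own series and 5 above it.

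The values of LCR68 with the other solutes covered much the same range. With sorbitol the gene read 6.78 and 6.94 (50 mM), 7.07 and 7.02 (100 mM) and 7.0 and 6.89 (150 mM). With PEG it read 6.76 and 6.86 (75 mM), 6.51 and 6.79 (100 mM), 6.68 and 6.90 (125 mM) and 6.93 and 6.76 (150 mM). With ethylene glycol it read 6.82 and 6.88 (50 mM), 6.78 and 6.92 (100 mM), 6.89 and 6.97 (150 mM) and 6.93 and 7.10 (200 mM). The PEG 100 mM group was the lowest, with a mean of 6.65 against 7.18 in the control.

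The differences of LCR68 from the control did not pass the test with all arrays in the fit. The PEG average was -0.41 on the log2 scale (SE 0.156, adjusted p = 1 in limma, and SE 0.110, adjusted p = 0.113 with the block). The NaCl average was -0.31 (SE 0.156, adjusted p = 1 in limma, and SE 0.110, adjusted p = 0.377 with the block), and the NaCl slope was -0.39 per 100 mM (adjusted p = 0.164 with the block). The sorbitol and ethylene glycol averages were -0.23 and -0.27. The size depends on the second control array: without it the PEG average was -0.15, the NaCl average -0.05 and the sorbitol average 0.03. In these fits, made without the block, the control left is of the first series alone and the treated groups hold both series. With the block the same averages were -0.22, -0.12 and -0.04. With the block, leaving out PEG 150 mM replicate 1 took the PEG average to -0.45 and the PEG slope to -0.33 per 100 mM. Leaving out NaCl 100 mM replicate 2 took the NaCl slope to -0.57 per 100 mM. In each such fit the group left with 1 array is assumed to vary like the other groups.

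LCR69 was less one-sided, with 12 group means below the control and 3 above it. Its control arrays read 7.60 and 7.77. With NaCl it read 7.87 and 7.55 (25 mM), 7.60 and 7.55 (50 mM), 7.68 and 7.53 (75 mM) and 7.27 and 7.47 (100 mM). With sorbitol it read 7.52 and 7.55 (50 mM), 7.75 and 7.53 (100 mM) and 7.70 and 7.71 (150 mM). The NaCl array at 7.87 lay above both control arrays, and no sorbitol array did. Over all solutes, 22 treated arrays were below the control of their own series and 7 above it.

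With PEG, LCR69 read 7.41 and 7.47 (75 mM), 7.46 and 7.58 (100 mM), 7.81 and 7.59 (125 mM) and 7.55 and 7.16 (150 mM). With ethylene glycol it read 7.68 and 7.34 (50 mM), 7.23 and 7.84 (100 mM), 7.09 and 7.02 (150 mM) and 7.50 and 7.66 (200 mM). Both arrays of ethylene glycol 150 mM lay below the other 30, while the next dose up was near the control. That group differed from the control by -0.63 (SE 0.190, adjusted p = 1 in limma, and SE 0.158, adjusted p = 0.626 with the block). The averages of LCR69 were -0.12 for NaCl, -0.06 for sorbitol, -0.18 for PEG and -0.27 for ethylene glycol, with adjusted p in limma of 1 for each, and between 0.601 and 0.999 with the block.

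**Figure D3:**
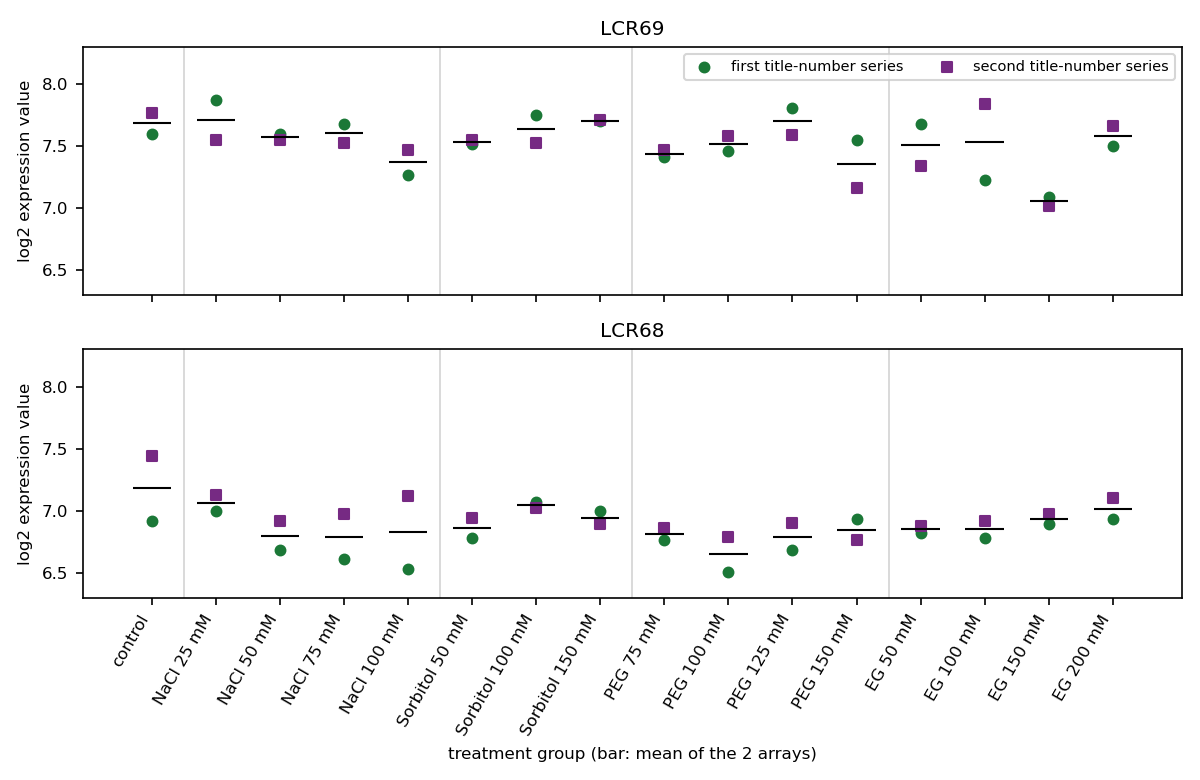
Log2 expression value of LCR69 (top) and LCR68 (bottom) on each array by treatment group, with circles for the first and squares for the second title-number series and bars for the mean of the 2 arrays. The control of LCR68 in the second series, at 7.44, is the highest of its 32 values, and the LCR69 arrays of ethylene glycol 150 mM, at 7.09 and 7.02, are the lowest of its 32.

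With NaCl, 0 of the 75 genes were called for the average, where 0% of all genes were called without the block and 0.209% with it, and 0 for the slope, where 0.0283% and 1.09% were. At an unadjusted p under 0.05 in limma, 1 gene of the 75 stood out in the average (2.51% of all genes) and 4 in the slope (3.16%). With the block these counts were 3 (8.81%) and 8 (9.47%). By value, 44 genes were higher and 31 lower than the control, with a median difference of 0.04. Of all genes 51.6% were higher, and of those in the lowest quartile 67.7%. LCR37 had the smallest p for the average without the block, and LCR68 with it. LCR37 read 2.55 and 2.00 in the control and 2.78 and 2.59, 3.02 and 2.54, 3.47 and 2.57, and 3.01 and 2.66 from 25 to 100 mM. Each NaCl array thus lay above the control of its own series, and the average difference was 0.56 (SE 0.254, adjusted p = 1 in limma, 0.408 with the block).

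Without the block, the NaCl slopes with the smallest p were those of SCRL15 at 0.43 per 100 mM (SE 0.167, adjusted p = 1 in limma, 0.386 with the block) and LCR31 at 0.33 per 100 mM (SE 0.139, adjusted p = 1 in limma, 0.401 with the block). With the block, LCR68, LCR85 and LCR37 had smaller p for this slope than either. In 7 of the 75 genes all NaCl arrays were above the control of their series, as in 5.57% of all genes, and in 1, LCR39, all were below it, as in 5.71%. LCR44 was one of the 7: it read 2.55 and 2.83 in the control and between 2.96 and 3.46 with NaCl. LCR39 read 2.24 and 2.77 in the control and had a NaCl average difference of -0.45 (SE 0.296, adjusted p = 1 in limma).

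With sorbitol, 0 of the 75 genes were called for the average, against 0% of all genes without the block and 0.138% with it, and 0 for the slope, against 0.0106% and 0.477%. At an unadjusted p under 0.05 in limma there were 5 genes for the average (3.17% of all genes) and 3 for the slope (2.88%), and with the block 8 (9.67%) and 6 (8.5%). By value 56 genes were higher and 19 lower than the control, where 51.3% of all genes and 75.3% of those in the lowest quartile were higher. LCR37 had the largest average difference here too, 0.79 (SE 0.263, adjusted p = 1 in limma, and SE 0.213, adjusted p = 0.185 with the block). It read 3.74 and 2.98 (50 mM), 2.66 and 2.83 (100 mM) and 3.43 and 2.72 (150 mM), so the lowest dose gave the highest group mean.

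LCR15, second by p without the block though not by size, had an average difference of 0.38 (SE 0.127, adjusted p = 1 in limma, 0.358 with the block) and a slope of 0.25 per 100 mM. It read 1.3 and 1.44 in the control and between 1.51 and 2.04 on the 6 sorbitol arrays, which did not overlap with the control. SCRL21 had a slope of 0.28 per 100 mM (SE 0.119, adjusted p = 1 in limma, 0.518 with the block). All sorbitol arrays were above the control of their series in 10 of the 75 genes, as in 9.34% of all genes, and below it in 1, LCR22, as in 9.38%. LCR44 was among the 10, with an average difference of 0.67 (SE 0.259, adjusted p = 1 in limma, 0.320 with the block).

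With PEG, 0 of the 75 genes were called for the average, against 0.00354% of all genes without the block and 0.421% with it, and 0 for the slope, against 0.0141% and 1.01%. At an unadjusted p under 0.05 in limma there were 4 genes for the average (3.94% of all genes) and 5 for the slope (5.62%), and with the block 5 (11.5%) and 8 (14.5%). By value 52 genes were higher and 23 lower for the average, and 56 had a positive and 19 a negative slope. Of all genes 50.7% were higher for the average and 50% had a positive slope. In the lowest quartile these shares were 75% and 78.4%. LCR19 read 1.31 and 1.52 in the control, 1.67 and 2.01 (75 mM), 1.73 and 1.87 (100 mM), 1.58 and 2.05 (125 mM) and 2.15 and 2.05 (150 mM). All 8 PEG arrays were above both control arrays, with an average difference of 0.47 (SE 0.177, adjusted p = 1 in limma, and SE 0.156, adjusted p = 0.220 with the block).

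With the block, the smallest adjusted p of the set for a PEG slope was that of LCR37, which read 2.25 and 2.46 (75 mM), 3.25 and 2.86 (100 mM), 3.03 and 2.39 (125 mM) and 3.14 and 3.08 (150 mM). Its slope was 0.54 per 100 mM (SE 0.198, adjusted p = 0.768 in limma, and SE 0.160, adjusted p = 0.0989 with the block). At PEG 125 mM, LCR65 read 1.58 and 2.67 against 0.88 and 1.39 in the control, a difference of 0.99 (SE 0.300, adjusted p = 1 in limma, and SE 0.251, adjusted p = 0.0997 with the block). Its highest array was the 2.67 of replicate 2. All PEG arrays were above the control of their series in 6 of the 75 genes, as in 6.4% of all genes, and below it in 0, where 6.48% of all genes were.

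The PEG 150 mM arrays of 3 genes differed widely from each other. LCR44 read 2.68 in replicate 1 and 4.14 in replicate 2, SCRL20 read 2.70 and 4.36, and LCR52 read 0.89 and 2.14. Replicate 2 is the array with the lowest SD over all genes. Over the genes of the lowest quartile the array median was 1.60 in replicate 1 and 1.88 in replicate 2. Without replicate 1, and with the block, the PEG slopes were 0.78 per 100 mM for LCR44, 0.69 for SCRL20 and 0.56 for LCR52. In that fit the group is 1 array, and the share of all genes called there is not given here. With all arrays the slopes were 0.48, 0.40 and 0.33, and none was called.

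With ethylene glycol, which enters plant cells readily, 0 of the 75 genes were called for the average, against 0% of all genes without the block and 0.00707% with it, and 0 for the slope, against 0% and 0.216%. At an unadjusted p under 0.05 in limma there were 3 genes for the average (1.21% of all genes) and 1 for the slope (1.43%), and with the block 5 (4.49%) and 1 (5.06%). By value 30 genes were higher and 45 lower than the control, where 50.7% of all genes and 48.2% of those in the lowest quartile were higher. LCR50 had the largest average difference, -0.62 (SE 0.261, adjusted p = 1 in limma, and SE 0.197, adjusted p = 0.821 with the block). Its control arrays read 1.17 and 2.62, and its ethylene glycol arrays 1.23 and 1.66, 1.19 and 1.34, 1.12 and 1.51, and 0.98 and 1.16 from 50 to 200 mM.

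The difference in LCR50 rests on the second control array, since without it the ethylene glycol average was 0.10, and -0.02 with the block. Without the first control array, and with the block, the averages of LCR50 were -1.01 for NaCl, -1.07 for PEG and -1.22 for ethylene glycol. LCR22 had an ethylene glycol average of -0.38 (SE 0.173, adjusted p = 1 in limma, 0.999 with the block) and LCR86 a slope of -0.14 per 100 mM (SE 0.0737, adjusted p = 1 in limma, 0.999 with the block). All ethylene glycol arrays were above the control of their series in 2 of the 75 genes, LCR47 and LCR19, as in 4.57% of all genes. They were below it in 3, LCR35, LCR22 and LCR28, as in 4.61%.

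Ethylene glycol was set against the other solutes by its slope minus the mean of the NaCl, sorbitol and PEG slopes. The slopes are per 100 mM as labelled, over dose ranges that differ, and were not scaled to osmotic strength. None of the 75 genes passed in limma, against 0% of all genes without the block and 0.113% with it, while 6 had an unadjusted p under 0.05 (3.1% of all genes), and 9 with the block (9.94%). LCR44 had the smallest adjusted p with the block, at a difference of -0.47 per 100 mM (SE 0.161, adjusted p = 1 in limma, and SE 0.143, adjusted p = 0.241 with the block). Its ethylene glycol arrays read 3.18 and 3.40 (50 mM), 3.07 and 2.78 (100 mM), 2.80 and 3.0 (150 mM) and 2.76 and 2.63 (200 mM). Without PEG 150 mM replicate 1, and with the block, this difference of LCR44 was -0.58.

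**Figure D4:**
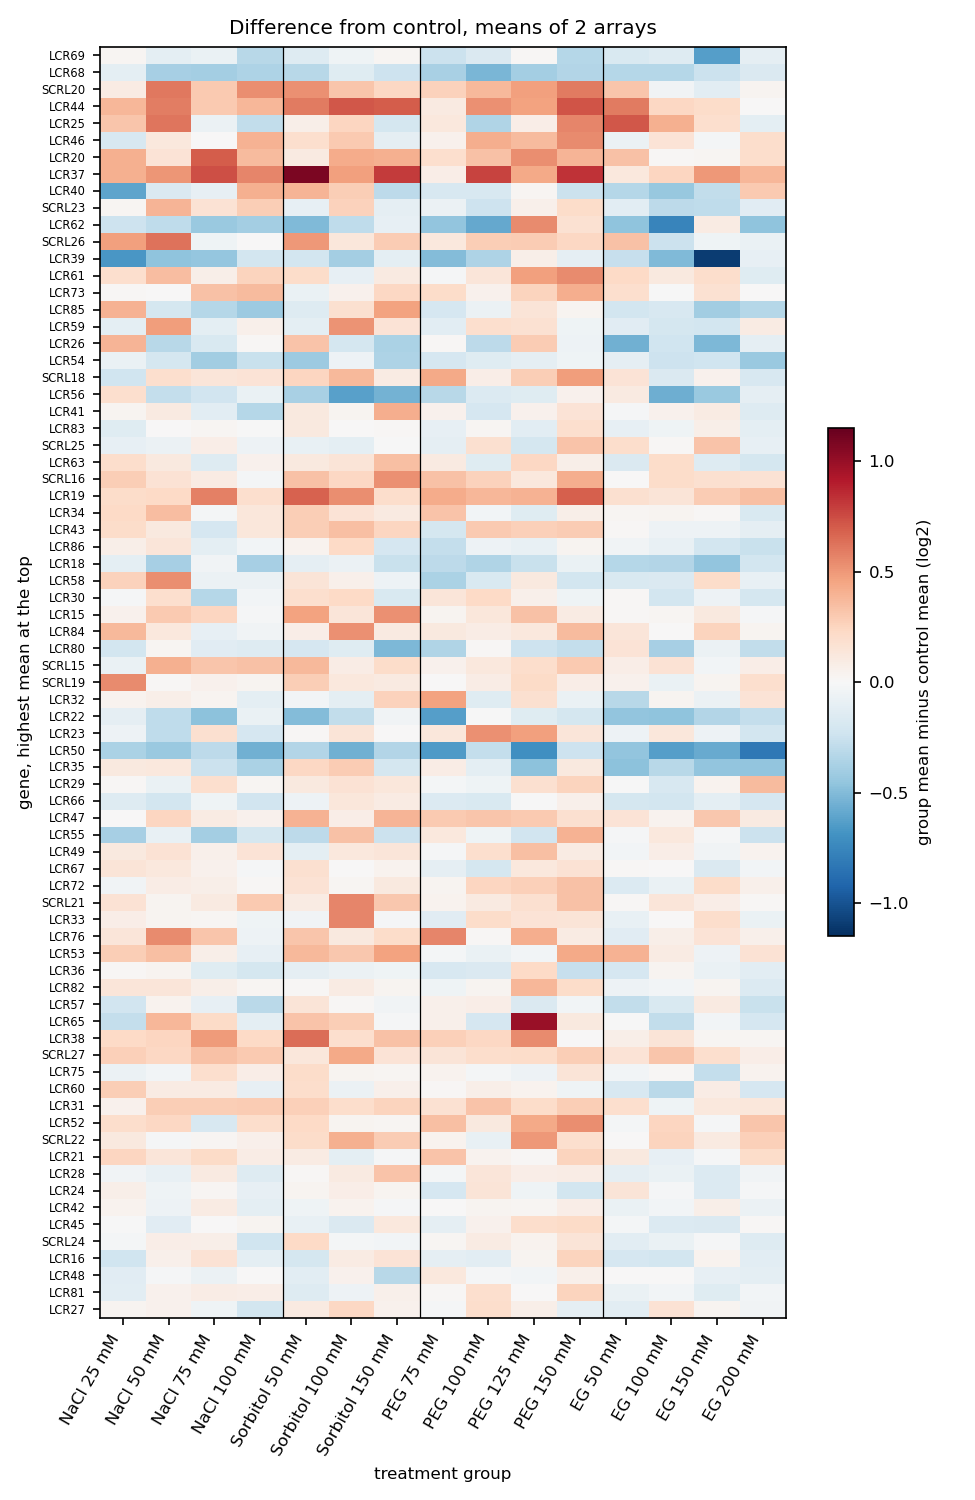
Difference of each group mean from the control mean (log2, colour scale) for the 75 genes, ordered from the highest mean level at the top, across the 15 treated groups. LCR37 is red and LCR50 blue in all 15 groups, LCR68 is blue in all 15, and no cell belongs to a difference that passed the test with all arrays.

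The signs of the differences moved with the level of the genes and with the control arrays. For sorbitol the median over the 75 genes was 0.08, for PEG 0.08 and for ethylene glycol -0.05, while over the 7071 genes of the lowest quartile the medians were 0.12, 0.12 and -0.01, and over all genes 0.01, 0.00 and 0.00. After quantile normalisation, which gives every array the same distribution, 37 of the 75 genes were higher and 38 lower for sorbitol, 39 and 36 for PEG, 33 and 42 for NaCl, and 32 and 43 for ethylene glycol, where it had been 30 and 45. Without the second control array the medians of all 4 averages were above 0, including that of ethylene glycol at 0.09. Without the first control array those of NaCl, PEG and ethylene glycol were below 0, at -0.09, -0.03 and -0.13, and that of sorbitol was 0.02. The part of the array scale in these signs was not tested further.

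The spread within a group was set beside the range of the group means. The SD within groups was 0.175 for LCR69 and 0.184 for LCR68, and its median over the 73 other genes was 0.246 (0.10 to 0.543), against 0.272 over all genes. The range of the 16 group means was 0.21 in LCR42, the smallest, and 0.56 in the median of the 73 lower genes. It was over 1 in 6 genes: LCR62, LCR65, LCR39, LCR37, LCR25 and LCR40. How many of all genes had so wide a range was not counted.

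LCR62 had the widest range, 1.3, from 1.64 and 1.79 with ethylene glycol 100 mM to 2.77 and 3.26 with PEG 125 mM. LCR39 was lowest with ethylene glycol 150 mM, at 1.42 and 1.41, and highest with PEG 125 mM, at 2.08 and 3.06. LCR25 ranged from a mean of 2.45 with PEG 100 mM to 3.51 with ethylene glycol 50 mM. PEG 125 mM was thus the highest group for LCR62, LCR65 and LCR39, and ethylene glycol 100 mM the lowest for LCR62 and LCR65. The control was the lowest group for 8 of the 75 genes, LCR44, LCR20 and LCR37 among them, and the highest for 5, LCR68 among them. The share of all genes with the control at either end was not counted.

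The title-number series gave calls among the 75 genes where the solutes gave none, though at a lower share than among all genes. With 1 mean per group in the fit, 22 of the 75 genes (29.3%) differed between the series in limma, 20 higher and 2 lower in the second. Of all genes 62.8% did, 34.6% higher and 28.2% lower. Among the genes in the lowest quartile, where 65 of the 75 lie, 35.5% did, 31.2% higher and 4.27% lower. The split depended on the scaling, among the 75 and among all genes. After quantile normalisation 19 of the 75 were called, 10 higher and 9 lower. Of all genes 57.7% were, 30.5% higher and 27.1% lower. After centring on the array medians 34 of the 75 were called, 32 higher and 2 lower. Of all genes 69.6% were, 45.2% higher and 24.4% lower.

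LCR32 had the smallest adjusted p, with a mean of 1.26 in the first series (0.91 to 1.66) and 1.68 in the second (1.34 to 2.40), and was higher in the second in 16 of 16 groups. Its difference was 0.42 (SE 0.0665, adjusted p = 4.17e-06 in limma). SCRL26 differed by 0.47 (SE 0.130, adjusted p = 0.00284 in limma; higher in 13 of 16 groups), LCR84 by 0.43 (SE 0.0778, adjusted p = 3e-05 in limma; 15 of 16) and SCRL20 by 0.42 (SE 0.0971, adjusted p = 0.000504 in limma; 15 of 16). LCR25 went the other way, from 3.18 to 2.70, and was higher in the second series in 2 of 16 groups (difference -0.49, SE 0.119, adjusted p = 0.000832 in limma). The other gene lower in the second series was LCR37, at -0.29 (SE 0.0921, adjusted p = 0.0086 in limma).

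LCR68 was higher in the second series by 0.17 (SE 0.0491, adjusted p = 0.00394 in limma) and in 13 of 16 groups, whereas LCR69 had series means of 7.55 and 7.52 and did not pass. Of the 8 PDF genes outside the 75, 1 differed between the series, where 62.8% of all genes did. This was PDF2.5, the highest gene of the PDF2 class, higher in the second series by 0.39 (SE 0.0437, adjusted p = 1.28e-08 in limma). PDF2.1 differed by -0.08 and did not pass (adjusted p = 0.348 in limma). Over the 73 lower genes the median of an array was between 1.3 and 1.60 in the first series and between 1.39 and 1.75 in the second. The lowest array was the first control, at 1.3, and the highest were PEG 150 mM replicate 2 and sorbitol 50 mM replicate 2, both at 1.75. What the title numbers stand for is not given in the sources used here.

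**Figure D5:**
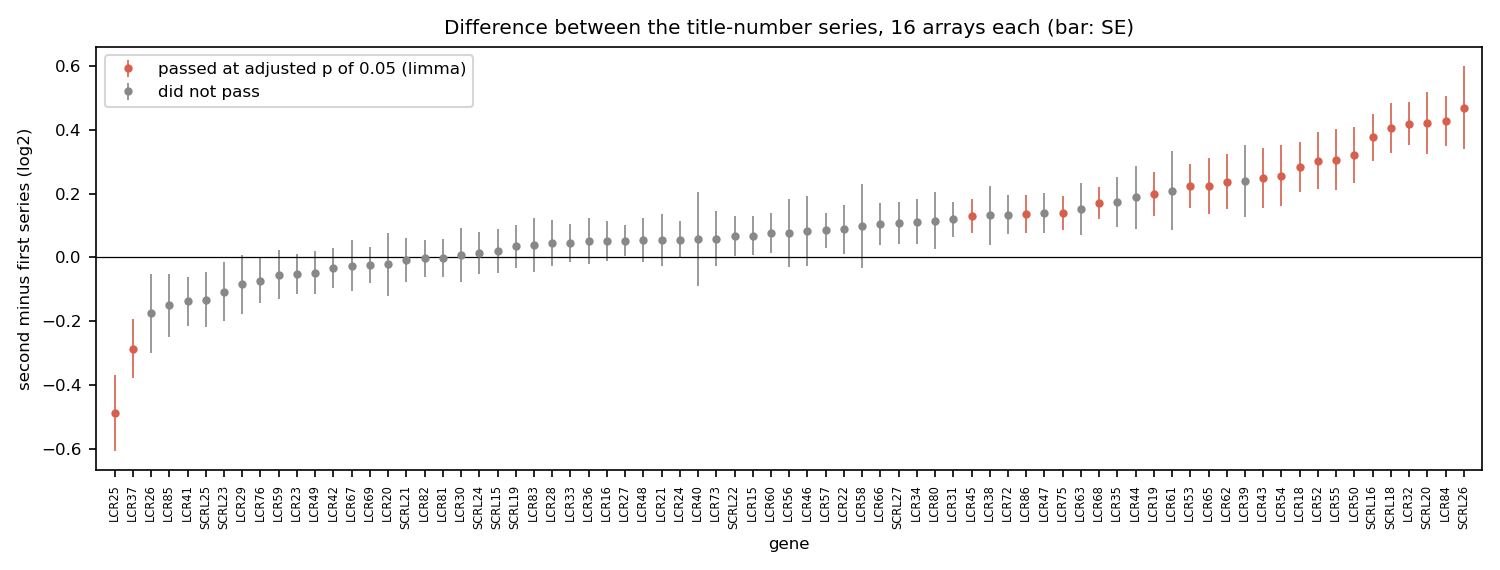
Difference between the title-number series (second minus first, log2) for each of the 75 genes, with bars of 1 SE on either side; genes that passed an adjusted p of 0.05 in limma are in red and the others in grey. LCR25 and LCR37 are the red points below 0, and 20 red points lie above it.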

How the data were processed

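Total RNA from 32 root samples was labelled with biotin and hybridised to one-colour whole-transcript arrays, per the labels. The authors deposited 1 value per probe set, with GCRMA, Transcriptome Analysis Console and Affymetrix Expression Console named as tools, per the submitters' processing notes. The deposited values, from 0.2 to 12.45, were read as log2 from this range; the log base is not given in the sources used here. Of 28477 probe sets, 16746 listed 1 gene, 758 several and 10973 none, and the highest-mean probe set of a gene was kept. All 32 columns belonged to a sample.

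The 75 members, the marker and peptide lists (root, shoot, seed, pollen, female gametophyte, PDF, thionins, GASA, RALF, EPF, ARK) and the tests were chosen with earlier results of these data known. Tests used limma 3.58.1 in R 4.3.3 over 28285 genes, with 1 mean per group, moderated variances with a trend, and Benjamini-Hochberg adjustment at 0.05, and were tested on simulated data. Arrays of 1 title-number series deviated together in all 120 pairs of groups (correlation 0.501 to 0.767), so a fit with the series as replicate block is given as well; this pairing comes from the title numbers. The median residual SD was 0.272 without and 0.190 with the block. One-way counts asked whether each treated array lay beyond the control of its series.

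Values are named for the 12 highest and 4 lowest means, the 2 smallest p without the block of each average, slope and F-test, the 4 largest series differences and the 4 largest ranges of group means. LCR65 at PEG 125 mM, LCR44, LCR52, LCR32, LCR39 with NaCl, and the one-way genes were picked after their values were seen. Alternatives were quantile normalisation, centring, no low genes, no variance trend, mean probe sets, the compared groups alone with the block, and leaving out each array; the block with an array left out or with quantile normalisation was added after seeing the data. The RefSeq table served for names, gene order and gene span.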

Additional observations from a re-analysis of the deposited data

How the results depend on the processing

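That 2 of the 75 genes lay above the array median on every array held under each of the 6 other rules tried: by the mean, by the 75th percentile, within each title-number series, with mean probe sets and after quantile normalisation. Quantile normalisation keeps the order of genes within an array, so that rule could not change the count. Mean probe sets left the values of the 75 genes unchanged, since each was read by 1 probe set. No gene of the 75 was called in a solute comparison by the fit with the series as replicate block, nor by the fits with quantile normalisation, centring, no variance trend, mean probe sets, the compared groups alone with the block, or without the lowest quartile of genes. Leaving out 1 array without the block gave no calls in any solute comparison except any single dose. There LCR44 was called at PEG 150 mM without replicate 1 of that group, at 1.45. That group is then 1 array, the one with the lowest SD over all genes, assumed to vary like the other groups. The same assumption holds for each group left with 1 array. With the block and 1 array left out the calls ranged from 0 to 1 for the NaCl, PEG and ethylene glycol averages, the NaCl and ethylene glycol slopes and the ethylene glycol slope against the others, from 0 to 4 for the PEG slope, and from 0 to 3 for any single dose. The arrays behind these calls were control replicate 1 (LCR50), PEG 125 mM replicate 1 (LCR65), PEG 150 mM replicate 1 (LCR44, LCR52, SCRL20, LCR68) and NaCl 100 mM replicate 2 (LCR68). For the series difference, leaving out 1 array gave 18 to 25 calls against 22, centring gave 34, and leaving out the lowest quartile of genes gave 4, since only 10 of the 75 genes remained in that fit.

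Signs turned in 6 values, none of them called there, when a control array was left out, given here as the range without the block and the turned value with it. LCR50 EG average ran from -1.35 to 0.10. LCR69 Sorbitol average ran from -0.14 to 0.027 (0.046 with the block) and was 0.0017 after quantile normalisation, with and without the block. LCR68 Sorbitol average ran from -0.49 to 0.030, and LCR69 Sorbitol slope from -0.018 to 0.084 (-0.029 with the block). LCR68 Sorbitol slope ran from -0.26 to 0.052 (0.0080 with the block) and LCR68 EG slope from -0.15 to 0.054 (0.025 with the block). The cause was not tested.

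With 2 arrays a group, 73 of the 75 genes below the middle of the array, and no detection p-value, the absence of calls does not show that these genes did not respond. A low value also does not show that a transcript was absent. Each solute was compared with the same 2 control arrays, so the comparisons share their error.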

Other observations

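Other families of small cysteine-rich peptides were read on the same arrays. The thionins THI2.1 and THI2.2, toxic defence peptides, had mean log2 values of 1.90 and 1.48, below the array median on every array. The RALF peptides, secreted signals known to act through receptor kinases of the FERONIA class, had means from 0.964 to 7.26: of 18 found, 4 lay above the array median on all 32 arrays, RALFL22 (mean 7.26), RALFL32 (5.59), RALFL33 (5.29) and RALFL34 (4.98). No thionin or RALF gene was called in any solute comparison in limma, with or without the replicate block. GASA, EPF and ARK genes were looked for by symbol and 0 were found among the one-gene probe sets.

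Between the title-number series 11 of the 18 RALF genes differed in limma, 8 higher and 3 lower in the second, where 62.8% of all genes differed. RALFL15 was above the array median on 16 of the 32 arrays, ran from 2.69 to 5.40, and was higher in the second series by 1.78 (SE 0.0895, adjusted p = 1.05e-15 in limma). RALFL33 and RALFL32 were lower in the second series by values of -1.01 and -1.07. These 3 differences are larger in size than those of the LCR and SCRL genes, of which the largest was -0.49 in LCR25.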
